A study of Mus musculus with 18 samples.

Results

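Treg cells of brown adipose tissue (BAT) and of the spleen, both from mice kept at 30 °C, were compared on 6 of the 18 arrays of the series, 3 for each tissue. The arrays were chosen by their labels alone. All of the mice were of the C57BL/6 background and were labelled Foxp3-GFP-DTR-CD90.1, a Foxp3 reporter line that also carries a diphtheria toxin receptor, and the Treg cells were labelled CD4+CD25+Foxp3+. The methods instead name C57Bl6 females that arrived at 8 weeks of age and were acclimatized for 2 weeks, and a sort by CD4 and CD25, and which description applies cannot be read from the values. No toxin treatment is given for these groups. Organs were pooled before the sort and 60 mice served for the warm cells. An array therefore stands for a pool, and the spread between single mice is not measured. The p-values cover only the spread between arrays, which the limma tests below pool over all 18 arrays and not only these 6. The number of mice in a pool is not given in the sources used here. RNA of 2.5 ng was amplified before biotin labelling. The other 12 arrays, used here for reference, held conventional CD4+Foxp3- T cells (Tconv cells) of the same tissues at 30 °C and both cell types from BAT of mice moved to 12 °C for 2 days.

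Treg cells are CD4+ T cells that depend on the transcription factor Foxp3 and restrain immune responses. Splenic Treg cells largely recirculate through blood and lymphoid organs, whereas Treg cells that settle in tissues such as white fat, muscle or skin are known to adopt expression programmes of their own. BAT is the fat depot that dissipates energy as heat. The comparison asks how the transcripts of Treg cells in BAT differ from those in the spleen when the tissue is not challenged by cold. The table identifies transcripts by Illumina probe number and pairs 0 of them with a gene name, so the probes below stand for transcripts whose genes are not named here, and neither Foxp3 nor markers of other cells could be used to check the labelled cell type.

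The BAT arrays and the spleen arrays lay on different BeadChips, the glass carriers of this platform, and all spleen arrays of the series shared one. Tissue and BeadChip therefore cannot be told apart in the comparison of Treg cells. The arrays sat at the same positions on both BeadChips. In bulk samples such as these, fewer cells of a type and less RNA per cell cannot be told apart either.

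Of 45267 regular probes, 38.5%, 42.2% and 39.9% passed the deposited detection p-value of 0.05 on the 3 BAT Treg arrays, against 33.4%, 30.9% and 34.4% on the 3 splenic Treg arrays. The BAT arrays were all above the spleen arrays, by 7.31 percentage points between the means (40.2% ± 1.86 against 32.9% ± 1.76, SD, n = 3, two-sided exact permutation p = 0.1, the smallest that 3 against 3 arrays allow). The same threshold let through 22.8% to 24.5% of the 936 negative control probes on these 6 arrays, so it is lenient. A stricter limit, the 95th percentile of the negative controls on an array, was exceeded by 18.1% ± 1.25 of the probes in BAT and 11.2% ± 1.78 in spleen (SD, n = 3, exact permutation p = 0.1). Median negative control intensities were 117, 123 and 126 on the BAT arrays and 112, 141 and 149 on the spleen arrays, ranges that overlapped (exact permutation p = 0.4).

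The control probes, which do not depend on the cells' transcripts except for the housekeeping ones, differed between the arrays in part. Both biotin probes were brighter on every BAT Treg array than on every splenic one, with mean intensities 1.16 and 1.27 times as high. Both hybridization controls of high concentration did the same, at 1.16 and 1.19 times, as did 1 of the 2 of medium concentration (1.09 and 1.15 times), whereas both of low concentration overlapped (0.985 and 1.05 times). The 8 labeling controls overlapped between the groups, but at intensities of 106 to 181 they lay at the level of the negative controls and do not bear on the labelling. Of the 14 housekeeping probes 5 (35.7%) were apart, all brighter in BAT, where 9.66% of the tested probes were apart and brighter and 2.43% apart and dimmer on the same uncorrected scale. The median ratio of the 14 was 1.02. It includes ILMN_1377922, ILMN_2588051 and ILMN_2588054, which lay near the negative controls. Their mean intensities were 120, 151 and 128 in BAT and 136, 144 and 142 in spleen, so their ratios say little about housekeeping transcripts. The widest housekeeping difference was that of ILMN_2588050, at 937 ± 129 in BAT and 299 ± 117 in spleen (mean intensity ± SD, n = 3), a ratio of 3.13. Of the mismatch controls, 2 of 4 were apart and both were dimmer in BAT, at 0.679 and 0.783 times. The part of these differences in the probe results was not tested.

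**Figure D1:**
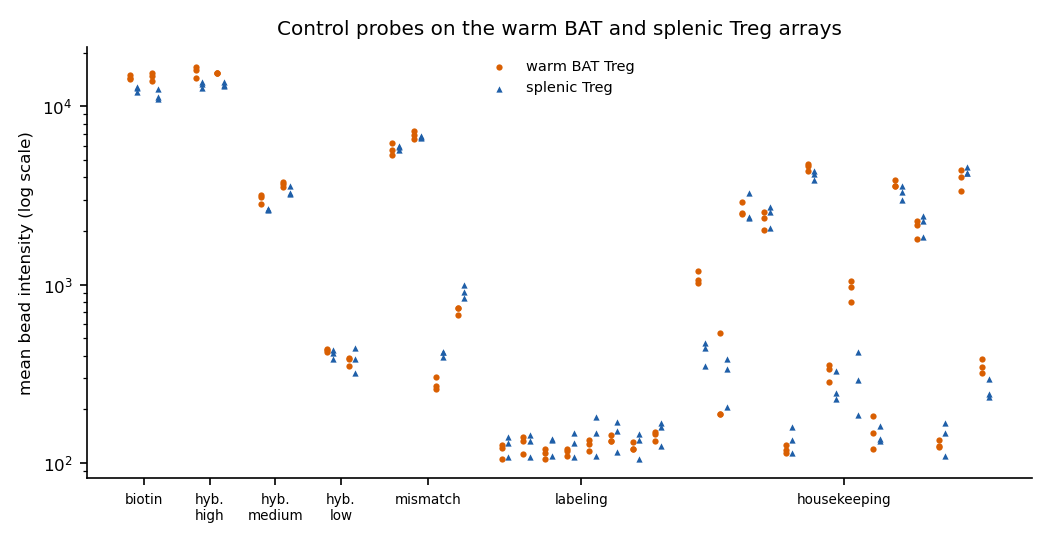
Mean bead intensity on a log axis, before background correction, of each control probe (1 column of points per probe, grouped by kind, "hyb." for hybridization controls) on the 3 warm BAT Treg arrays (circles) and the 3 splenic Treg arrays (triangles). The biotin and high hybridization controls were brighter on all BAT arrays, the labeling controls overlapped at background level, and 5 of 14 housekeeping probes lay apart.

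After background correction, quantile normalization and a log2 transform, 17395 probes that were detected on all 3 arrays of at least 1 group of the series were tested with limma on all 18 arrays. A call required an adjusted p under 0.05 and a difference of more than 2-fold. In warm BAT Treg cells 442 probes were called higher (2.54% of those tested) and 149 lower (0.857%), or 3.4% in either direction. Differences were wider upward. Of the higher probes 190 exceeded 2 log2 units, 55 exceeded 3 and 13 exceeded 4, whereas of the lower probes 13 exceeded 2, 1 exceeded 3 and 0 exceeded 4. The highest difference was 5.05 and the lowest -3.05 on the log2 scale. The arrays of the groups did not overlap for 2117 probes that were higher in BAT (12.2% of those tested) and 2832 that were lower (16.3%). On the uncorrected intensities the order was the reverse, with 1681 higher (9.66%) and 422 lower (2.43%). Among the called probes the normalized signals did not overlap for 440 of 442 and 148 of 149, though these same arrays had made the calls.

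The counts rested in part on single arrays. Without replicate 1 of the BAT Treg cells 269 probes were called higher and 58 lower, and without replicate 2 of the splenic Treg cells 259 and 91. Without replicate 2 of the BAT Treg cells the lower probes numbered 76, and without replicate 1 of the splenic Treg cells 320 were called higher and 251 lower, which took the share of higher calls from 74.8% to 56.0%. In every one of the 6 fits that left out 1 array, 181 of the 442 higher and 38 of the 149 lower probes were called again. The split also moved with the scaling. With arrays scaled to a common median, which moved the median difference of all tested probes from -0.08 to 0.18, 964 probes were called higher and 8 lower (99.2% higher). Cyclic loess gave 353 and 62 (85.1% higher), and quantile normalization without background correction 238 and 23 (91.2% higher).

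**Figure D2:**
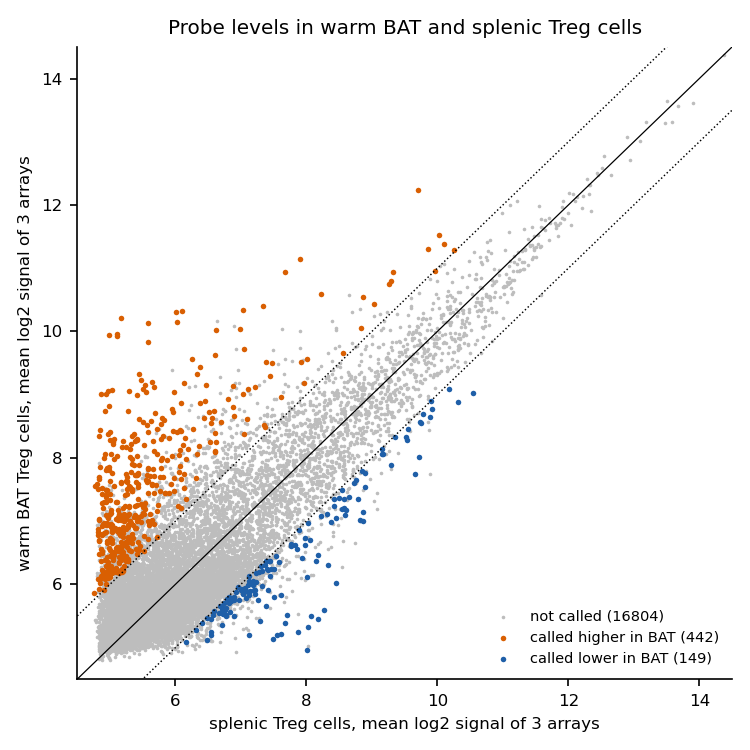
Mean log2 signal of each of 17395 tested probes in splenic Treg cells (x axis) and warm BAT Treg cells (y axis), 3 arrays each, with the line of equality solid and 2-fold differences dotted. The 442 probes called higher lay mostly at low splenic signals, and the 149 called lower lay closer to the 2-fold line.

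The higher probes were, for the most part, faint in the spleen. Of the 442, 137 were detected on no splenic Treg array, 187 on 1 or 2 and 118 on all 3. The lower probes were, by contrast, mostly detected in both tissues, with 137 of 149 detected on all 6 arrays, 11 on 1 or 2 of the BAT arrays and 1 on none. Of all tested probes 53.8% were detected on all 6 arrays. Another 4.66% were detected on all 3 BAT and no splenic array, and 19.6% on all 3 BAT and 1 or 2 splenic arrays. The other way these shares were 0.345% and 5.62%. How far the detection of the called probes restates this imbalance was not tested. The median level of the 442 probes was 7.43 in BAT and 5.28 in spleen on the log2 scale, where the median over all tested probes was 5.69 and 5.72. The median level of the 149 was 6.03 in BAT and 7.45 in spleen. When the tested probes were divided by their mean signal over all 18 arrays into 3 classes of equal size, the dimmest class gave 31 higher and 3 lower calls, the middle class 150 and 21, and the brightest class 261 and 125.

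Averaged over the 442 probes, the log2 level was 7.83, 7.54 and 7.52 on the BAT Treg arrays and 5.55, 5.52 and 5.70 on the splenic Treg arrays. These arrays had chosen the probes, so the gap between them is a description. On arrays that took no part in that contrast, the same probes averaged 6.82, 6.58 and 6.45 in warm BAT Tconv cells and 5.62 ± 0.11 (SD, n = 3) in splenic Tconv cells. Their median log2 difference between BAT and spleen was 0.81 in Tconv cells, against 1.88 in Treg cells, and that of all tested probes was -0.03 in Tconv cells. In that comparison 330 probes were called higher in BAT Tconv cells (1.9% of those tested) and 132 lower (0.759%), or 2.66% in either direction, and leaving out 1 array gave 127 to 587 and 43 to 299, with only replicate 3 of the splenic Tconv cells (250 and 152 without it) moving neither by over 1.5 times. The extremes came without replicate 1 of the BAT and without replicate 1 of the splenic Tconv cells. In BAT Treg cells of cold mice the 442 probes averaged 7.48, 7.43 and 7.11. These arrays lay on a BeadChip of their own, and since the probes had been chosen for their signal on the warm arrays, no order between warm and cold is read from this. Averaged over the 149 lower probes, the level was 6.41 ± 0.09 in warm BAT Treg cells, 7.76 ± 0.15 in splenic Treg cells, 6.87 ± 0.06 in BAT Tconv cells, 7.44 ± 0.04 in splenic Tconv cells and 6.57 ± 0.09 in cold BAT Treg cells (SD, n = 3). Their median difference in Tconv cells was -0.52, and the Tconv arrays shared the BeadChips of the Treg arrays.

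The spread between arrays was larger than the error of the beads. Each probe was read from a median of 40 to 42 beads per Treg array. After quantile normalization without background correction, the median standard deviation of the log2 signals between the 3 arrays was 0.14 in BAT and 0.16 in spleen over all tested probes. The median standard error that the beads gave, from intensities before normalization, was 0.07 in both. For the probes called higher the spread was 0.23 in BAT and 0.14 in spleen, and for the probes called lower 0.11 and 0.20, so that each set varied more in the tissue where it was brighter. How far the background left in these signals narrowed the spread of faint probes was not tested. The splenic Treg arrays were also less alike than the BAT Treg arrays. Pearson's correlation across the tested probes, which are not independent of each other, was 0.861 to 0.917 between BAT arrays, 0.746 to 0.811 between spleen arrays and 0.667 to 0.823 between tissues.

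Among the probes called higher and detected on no splenic Treg array, the 8 brightest in BAT had signals at least 9.58-fold to at least 27.3-fold higher there, where the bound sets each spleen array at the lowest signal detected on it. ILMN_2763245 reached 9.93, 9.62 and 10.28 in BAT against 4.89, 4.98 and 5.08 in spleen on the log2 scale, at least 27.3-fold higher (limma adjusted p = 0.00482). Its raw intensities were 1197 ± 43.9, 1078 ± 57.7 and 1452 ± 57.2 in BAT (standard error over 49, 34 and 40 beads) and 105 ± 3.22, 140 ± 8.12 and 164 ± 10.9 in spleen. In cold BAT Treg cells this probe varied widely, at 8.31 ± 2.60 (SD, n = 3).

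ILMN_2778289 was the most selective of these 8 for BAT Treg cells among the groups measured, in that it was detected on all 6 BAT Treg arrays and on none of the 6 Tconv arrays at 30 °C, the 3 cold BAT Tconv arrays or the 3 splenic Treg arrays. Its log2 levels were 9.65, 8.81 and 8.55 in warm BAT Treg cells and 4.94, 4.85 and 4.78 in splenic Treg cells, at least 14.2-fold higher (limma adjusted p = 2.03e-07). Cold BAT Treg cells stood at 9.08 ± 0.36 (SD, n = 3), near the warm level. Warm BAT Tconv cells were at 4.86, 4.94 and 4.87 and splenic Tconv cells at 4.77, 4.79 and 4.87, all at background.

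ILMN_2851671 read 8.66, 9.31 and 9.28 in BAT and 4.87, 5.21 and 5.02 in splenic Treg cells, at least 15.0-fold higher (limma adjusted p = 1.15e-06), and it was also called higher in Tconv cells of BAT, at 7.28, 8.14 and 8.32 against 5.57, 4.98 and 4.85. ILMN_1243212 (at least 14.8-fold) and ILMN_2658501 (at least 12.5-fold) were likewise called higher in both cell types. ILMN_3136561 (at least 11.9-fold) and ILMN_2639239 (at least 9.58-fold) were called in Treg cells, with Tconv differences of 1.49 and 1.24 log2 units that did not pass the test (limma adjusted p = 0.135 and 0.163). ILMN_1229957 ran differently. It read 8.99, 9.40 and 8.66 in BAT and 4.83, 4.93 and 5.03 in splenic Treg cells (at least 14.3-fold higher, limma adjusted p = 0.0165), but 7.65, 7.82 and 6.39 in BAT and 9.01, 9.88 and 8.73 in splenic Tconv cells. The Tconv arrays were thus apart in the opposite order, though their difference of -1.92 did not pass the test (limma adjusted p = 0.24). Cold BAT Treg cells varied widely, at 9.06 ± 2.25 (SD, n = 3). The difference between the cell types was 6.01 log2 units with a standard error of 1.22, which missed the threshold (limma adjusted p = 0.0748), and its Treg call was kept in 12 of 16 alternatives, with adjusted p from 0.00244 to 0.0569. The other 7 of these 8 probes were called in each of the 16.

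In the opposite direction 1 probe was called lower and detected on no BAT Treg array. ILMN_1241598 read 5.00, 5.00 and 4.88 in BAT and 7.51, 8.29 and 8.23 in spleen, at least 7.60-fold lower in BAT (limma adjusted p = 0.000233), and it was called in each of the 16 alternatives. It was called lower in BAT Tconv cells as well, where it remained detected, at 6.79, 7.96 and 7.83 against 9.69, 9.61 and 9.11 in splenic Tconv cells. In cold BAT Treg cells it was detected on all 3 arrays, at 5.36 ± 0.28 (SD, n = 3).

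Among the probes detected on all 6 Treg arrays, the 10 with the highest differences were 3.05 to 3.40 log2 units higher in BAT. ILMN_2944755 had the highest of these, at 9.71, 10.30 and 10.05 in BAT and 5.34, 7.02 and 7.50 in spleen (3.40, SE 0.43, limma adjusted p = 0.000574). Its splenic arrays spanned more than 2 log2 units, yet all lay below the BAT arrays, and its level in cold BAT Treg cells was 9.76 ± 0.15 (SD, n = 3). In Tconv cells it was faint in both tissues, at 5.22, 5.66 and 6.49 in BAT and 5.28, 5.59 and 5.08 in spleen. The difference between the cell types, 2.92 log2 units, missed the threshold (limma adjusted p = 0.0833). Its Treg call was kept in 15 of 16 alternatives and lost in the fit of only the arrays compared (limma adjusted p = 0.0517).

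ILMN_3162407 was the brightest of the 10, at 11.26, 11.12 and 11.08 in BAT and 8.26, 7.15 and 8.31 in spleen (3.25, SE 0.32, limma adjusted p = 8.53e-05). Its raw intensities were 2530 ± 166, 2590 ± 138 and 2312 ± 109 in BAT (± bead standard error) and 330 ± 16.5, 274 ± 15.6 and 450 ± 20.5 in spleen. It was called in all 16 alternatives, as were ILMN_2964042, ILMN_2718330, ILMN_1243741 and ILMN_2449120, with differences of 3.07, 3.07, 3.06 and 3.05. In Tconv cells 7 of the 10 probes were also called higher in BAT, where 1.9% of all tested probes were. There 10 of 10 were positive, where the median difference of all tested probes was -0.03. The Tconv arrays shared the BeadChips of the Treg arrays. ILMN_2829594 is an example with nearly equal differences, 3.31 in Treg and 3.17 in Tconv cells (limma adjusted p = 0.00805 and 0.0145). ILMN_2595732 and ILMN_2481117, at 3.31 and 3.07, had standard errors of 0.80 and 0.83, which draw on all 6 groups. Both spread most in splenic Tconv cells (SD 2.04 and 2.27, n = 3). They were called in 10 and 5 of the 16 alternatives (adjusted p 0.00827 to 0.123 and 0.0186 to 0.165). ILMN_1224768 (3.27) read 7.96, 9.52 and 5.55 in the spleen and was called in 14 of them (0.00169 to 0.158).

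The 10 lowest probes detected on all 6 Treg arrays had differences of -2.70 to -1.87 log2 units, and fewer of them kept their calls. Only 1 of the 10, ILMN_2890515, was called in all 16 alternatives, and 4 of the 10 in every fit that left out 1 array. ILMN_2890515 read 5.68, 6.05 and 6.34 in BAT and 8.35, 8.59 and 8.40 in spleen (-2.42, SE 0.39, limma adjusted p = 0.00316). Cold BAT Treg cells stood at 5.61 ± 0.09 (SD, n = 3). Its Tconv levels overlapped between the tissues, at 7.57, 7.00 and 7.28 in BAT and 7.92, 7.71 and 6.22 in spleen, but the difference between the cell types was not called (limma adjusted p = 0.122). ILMN_1216007, at 6.67, 7.06 and 7.26 in BAT and 8.84, 8.89 and 8.88 in spleen (-1.87, limma adjusted p = 0.00785), had spleen arrays close to each other, while its level in cold BAT Treg cells was 8.12 ± 0.87 (SD, n = 3).

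ILMN_1237324 (-2.57, limma adjusted p = 0.00389) and ILMN_1254228 (-1.87, limma adjusted p = 0.00653) were the others called in every fit that left out 1 array. ILMN_1254228 was detected on no Tconv array of either tissue, with Treg levels of 5.84, 5.14 and 5.27 in BAT and 7.80, 6.19 and 7.87 in spleen. The steepest, ILMN_2641793 and ILMN_1239469, had differences of -2.70 and -2.63 with spleen arrays far apart, from 5.89 to 9.51 for the latter, and they were called in 6 and 5 of the 16 alternatives (adjusted p 0.0108 to 0.141 and 0.00204 to 0.198). ILMN_1225085, ILMN_2682162, ILMN_2525856 and ILMN_3072437 had adjusted p between 0.0308 and 0.0479 and were called in 5 to 8 of them. ILMN_2525856 was the 1 probe of the 10 that was also called lower in BAT Tconv cells, where 0.759% of all tested probes were. Its level was 9.56 ± 0.19 (SD, n = 3) in cold BAT Treg cells and 6.38, 8.10 and 8.76 on the warm BAT Treg arrays. As the probe was chosen for its low signal on the warm arrays and the cold arrays lay on another BeadChip, no order is read from this.

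**Figure D3:**
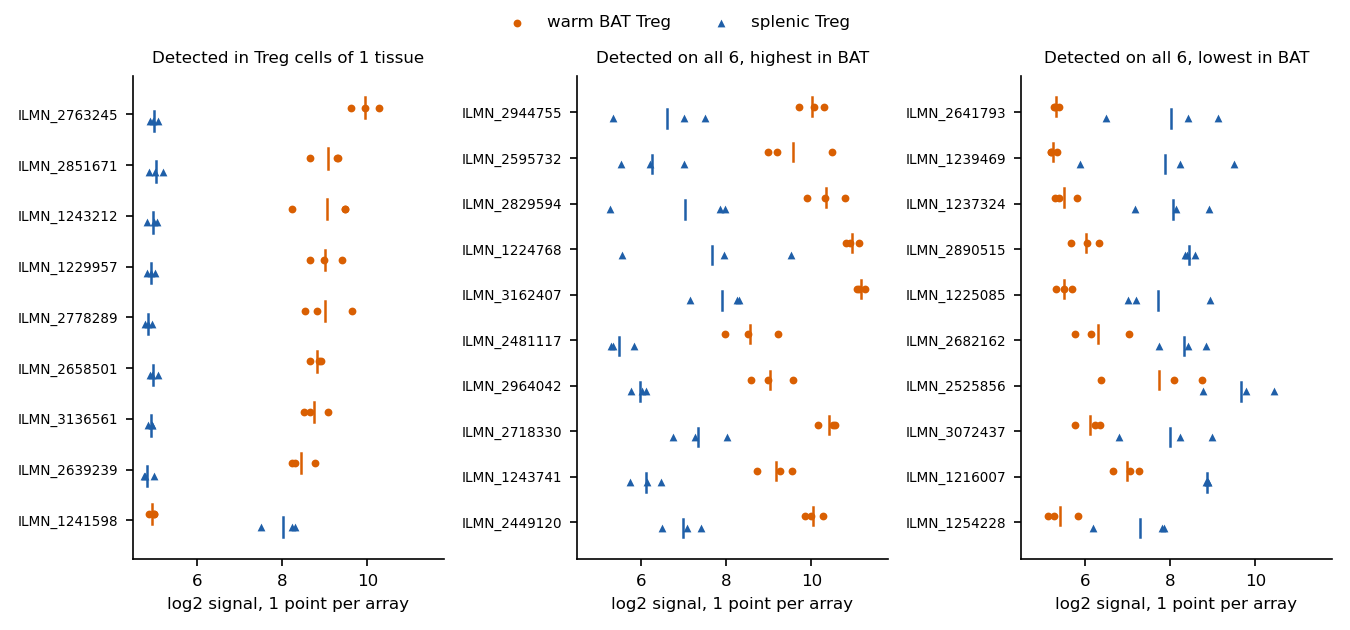
Log2 signal of the named probes on the 3 warm BAT Treg arrays (circles) and the 3 splenic Treg arrays (triangles), with a bar at each group mean. Left, probes undetected in 1 tissue, of which 8 were higher and 1 lower in BAT; middle and right, the 10 highest and 10 lowest differences among called probes detected on all 6 arrays. The probes were chosen so that their arrays did not overlap, and the spleen arrays were spread widely for several probes, such as ILMN_1224768 and ILMN_1239469.

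Whether the tissue difference was the same in Treg and Tconv cells was tested as an interaction, the Treg difference minus the Tconv difference. A shift shared by all arrays of a BeadChip on the log2 scale cancels in this term. With limma, 17 probes were called more positive in Treg cells (0.0977% of those tested) and 16 more negative (0.092%), and 1452 had an unadjusted p under 0.05. Of the 17, 13 were called higher in BAT Treg cells and 4 were called lower in BAT Tconv cells. Of the 16, 3 were called lower in BAT Treg cells and 13 were called higher in BAT Tconv cells. Over all tested probes these calls made up 2.54%, 0.759%, 0.857% and 1.9%, and as the interaction is computed from the same differences, nothing is read from these counts. In 16 of these 33 probes the differences had opposite signs in the 2 cell types, and 2 of the 33 were detected on no Treg array of either tissue.

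These counts were small and moved with single arrays. Without replicate 1 of the splenic Tconv cells they became 51 and 82, the highest of the 12 fits that left out an array. The more positive probes numbered 10 without replicate 1 of the BAT Treg cells, without replicate 1 of the splenic Treg cells or without replicate 3 of the BAT Tconv cells, and 11 without replicate 1 of the BAT Tconv cells. The more negative ones numbered 4 without replicate 1 of the BAT Treg cells or replicate 3 of the BAT Tconv cells, 6 without replicate 1 of the BAT Tconv or replicate 2 of the splenic Tconv cells, 7 without replicate 2 or 3 of the BAT Treg cells, and 10 without replicate 2 of the BAT Tconv or replicate 3 of the splenic Tconv cells.

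**Figure D4:**
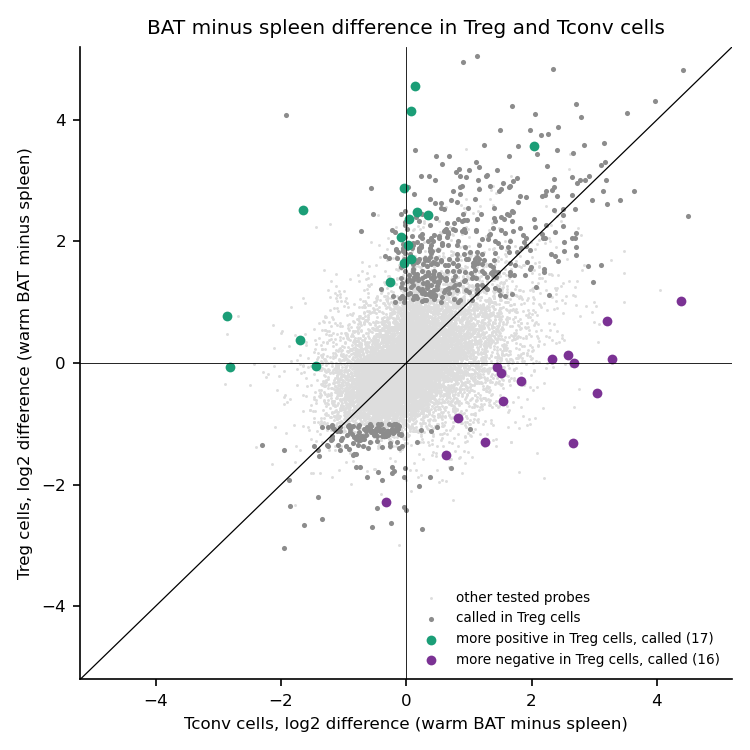
Log2 difference between warm BAT and spleen of each tested probe in Tconv cells (x axis) and in Treg cells (y axis), with the line of equal differences. Dark grey points were called in Treg cells, and green and purple points were called in the interaction, where the 17 more positive ones lie above the line and the 16 more negative ones below it.

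The 8 widest called interactions were 4 more positive and 4 more negative. ILMN_2778289, described above, held the lowest adjusted p (4.06 log2 units, SE 0.33, limma adjusted p = 6.92e-05) and was called in each of 22 alternatives. ILMN_2723881 (4.17, limma adjusted p = 0.0143) was also called in all 22, and its groups were ordered in opposite ways, at 7.67, 7.74 and 8.25 in BAT and 5.08, 5.11 and 5.90 in splenic Treg cells but 7.13, 7.00 and 5.91 in BAT and 7.92, 8.17 and 8.87 in splenic Tconv cells. The Tconv difference of -1.64 did not pass the test on its own (limma adjusted p = 0.0568). ILMN_1238505 (4.42, limma adjusted p = 0.0409) was bright in BAT Treg cells alone, at 10.51, 10.12 and 9.76, with the other 9 arrays at 30 °C between 5.21 and 7.53. Its interaction was called in 8 of the 22 (adjusted p 0.014 to 0.113). ILMN_2632008 (3.63, limma adjusted p = 0.0463) was set apart by splenic Tconv cells, at 7.56, 9.12 and 8.88, and was called in 6 of the 22 (0.00787 to 0.167).

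Of the 4 more negative probes, ILMN_1250816 (-3.98, limma adjusted p = 0.0144, called in 19 of 22) read 6.14, 8.20 and 7.21 in BAT and 8.41, 8.42 and 8.69 in splenic Treg cells, and 7.25, 7.82 and 8.06 in BAT and 5.31, 4.93 and 4.92 in splenic Tconv cells. The arrays were apart in both cell types, in opposite orders, although the Treg difference of -1.32 did not pass the test on its own (limma adjusted p = 0.0968). ILMN_2685712 (-3.37, limma adjusted p = 0.038) was brightest in BAT Tconv cells, at 9.39, 9.23 and 9.24. ILMN_2473531 (-3.54, limma adjusted p = 0.0409) and ILMN_1223029 (-3.21, limma adjusted p = 0.0267) were low in splenic Tconv cells alone. ILMN_1223029 read 9.36, 9.05 and 9.11 in BAT and 8.83, 8.96 and 9.51 in splenic Treg cells, which overlapped. These last 3 interactions were called in 10, 6 and 10 of the 22 alternatives, with adjusted p of 0.00924 to 0.104, 0.00424 to 0.141 and 0.000184 to 0.0889.

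**Figure D5:**
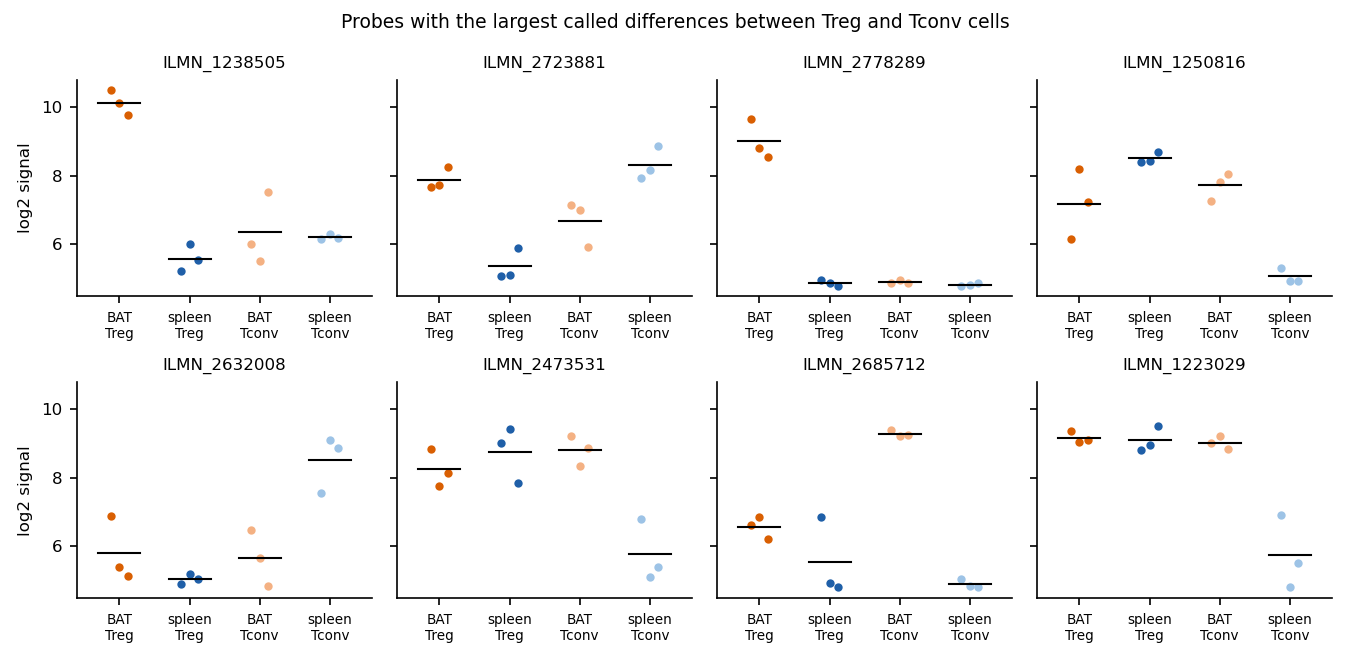
Log2 signal of the 8 probes with the widest called interaction on the 12 arrays at 30 °C, 3 points per group with a line at the mean. ILMN_2778289 and ILMN_1238505 were bright in BAT Treg cells alone, ILMN_2723881 and ILMN_1250816 were ordered in opposite ways in Treg and Tconv cells, and ILMN_1223029 was low in splenic Tconv cells.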

How the data were processed

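Both T cell types of the 3 tissue conditions were measured on 18 Illumina MouseWG-6 v2.0 arrays, 3 per group. The authors deposited, per the file headers, 1 table of intensities that were not normalized, namely the mean bead intensity, its standard deviation and the number of beads for each probe and array. Beside these the authors deposited detection p-values, whose calculation is not given in the sources used here. Of 108 value columns 36, with numbers of excluded beads, were not used. The methods name no normalization for these arrays, and the test they name is that of their general statistics section, a two-tailed t-test.

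With limma 3.58.1 in R 4.3.3, neqc corrected the background of 45267 regular probes with 936 negative controls (offset 16), followed by quantile normalization and a log2 transform. Probes detected (p-value under 0.05) throughout at least 1 group of 3 arrays were fitted with 1 mean for each of 6 groups (12 residual degrees of freedom), and moderated tests were adjusted over 17395 probes by Benjamini-Hochberg. The fit was also run on simulated data with independent normal noise, the same spread in every group and no BeadChip effect. That run checks the calculation and does not bear on BeadChips or unequal spread. The plots used matplotlib 3.10.9 in Python 3.11.15. The number of arrays limits the precision.

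Among called probes, the text names the 10 highest and 10 lowest differences detected on all 6 arrays without overlap, the up to 8 brightest in each direction undetected in 1 tissue, and the 8 widest called interactions. The comparison, rules and tests were chosen with earlier results of these data known. Alternatives for a Treg difference were 10 other settings (no background correction, an offset of 50, median scaling, cyclic loess, 3 other filters, the replicate number as a block, array weights, a fit of only the arrays compared) and 6 fits without 1 array, and for an interaction the same 10 and 12. The methods' t-test was run for the counts of called probes. The study describes the splenic Treg cells as taken from the same mice as those of BAT, but which pools correspond is not given in the sources used here. The replicate numbers were therefore not taken as pairs. Deviations from the group means of same-numbered arrays correlated at -0.04 to 0.04 between BAT and splenic Treg cells, and at 0.06 to 0.19 between BAT Treg and Tconv cells. Lists of genes and markers of other cell types could not be applied to probe numbers.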

Additional observations from a re-analysis of the deposited data

Results flagged for a closer look

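The difference between warm BAT and spleen was not the same in Treg and Tconv cells for 17 probes that were more positive and 16 that were more negative in Treg cells, by a limma test of the difference itself. The 4 widest of the more positive were ILMN_1238505 (4.42 log2 units), ILMN_2723881 (4.17), ILMN_2778289 (4.06) and ILMN_2632008 (3.63). The 4 widest of the more negative were ILMN_1250816 (-3.98), ILMN_2473531 (-3.54), ILMN_2685712 (-3.37) and ILMN_1223029 (-3.21). Of these 8, 2 were called in each alternative, namely ILMN_2778289 and ILMN_2723881.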

How the results depend on the processing

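Counts of called probes moved with the processing. Of the 442 higher and 149 lower Treg probes, 93 and 4 were called in every limma alternative, and 192 and 35 in the fit of only the arrays compared. In the order Treg, Tconv and interaction, and higher then lower, the main counts were 442 and 149, 330 and 132, and 17 and 16. They became 238 and 23, 170 and 24, and 10 and 12 without background correction. They became 294 and 57, 229 and 54, and 15 and 14 with an offset of 50. Median scaling gave 964 and 8, 686 and 16, and 15 and 4, and cyclic loess 353 and 62, 146 and 120, and 17 and 9. No filter gave 235 and 71, 166 and 66, and 11 and 5, array weights 404 and 152, 207 and 72, and 11 and 7, and the fit of only the arrays compared 238 and 42, 141 and 21, and 30 and 9. Both stricter filters stayed within 1.5 times.

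With 1 array left out, the counts ranged from 259 to 415 and from 58 to 251 in Treg cells, from 127 to 587 and from 43 to 299 in Tconv cells, and from 10 to 51 and from 4 to 82 for the interaction. In Tconv cells they were 127 and 43 without replicate 1, 143 and 56 without replicate 2 and 200 and 65 without replicate 3 of the BAT cells, and 587 and 299 without replicate 1 and 165 and 87 without replicate 2 of the splenic cells. The replicate number as a block gave 457 and 145 in Treg cells, 316 and 121 in Tconv cells, and 11 and 9 for the interaction. The deviations of same-numbered arrays correlated at -0.04 to 0.04 between BAT and splenic Treg cells, 0.00 to 0.02 between BAT and splenic Tconv cells, 0.06 to 0.19 between BAT Treg and Tconv cells and 0.01 to 0.05 between splenic Treg and Tconv cells. Every one of the 6 warm BAT arrays correlated best with its own number in the other cell type, against 4 of 6 splenic arrays, and 2 of 6 between Treg cells of the tissues. In BAT this was clear for replicate 1 alone (0.187). Replicates 2 and 3 correlated at 0.0591 and 0.0752 with their own number and at 0.0549 and 0.0572 with each other's. It is a weak hint from the data and not from the design, and the cold BAT arrays were not examined.

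The methods' t-test was run on log2 signals with background correction and on linear intensities that were quantile-normalized without it. The scale and the background correction therefore changed together. At an unadjusted threshold it gave 753 and 228 in Treg and 691 and 215 in Tconv cells on log2 signals, and 254 and 22, and 210 and 18, on linear intensities. After Benjamini-Hochberg it gave 47 and 3, and 9 and 1, on log2 signals, and 5 and 0, and 0 and 0, on linear ones. The cause of these movements was not tested, beyond the smaller number of arrays or different probes that an alternative uses by construction. Of 464 values of the Treg probes named, 376 stayed called, 88 did not and 0 reversed, and of 176 for the interactions, 103, 73 and 0.

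The share of detected probes differed by 7.02 points at a detection p of 0.01 and by 6.86 above the 95th percentile of the controls. The BeadChip as a random block could not be fitted, since each group lies on 1 BeadChip. The alternatives on probes of a gene and on marker lists were not run, since probes are not paired with genes. Signals near background limit the folds of undetected probes to bounds. Folds of faint probes that passed the lenient detection threshold were not bounded.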
